A study of Mus musculus with 6 samples.

Results

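Whole-liver messenger RNA was read for 9 transcription factors that set and keep hepatocyte identity: Onecut1, Onecut2, Foxa1, Foxa2, Foxa3, Hnf4a, Hhex, Prox1 and Nr5a2. They were chosen by gene name, and all 9 were found among the 54532 genes of the table. RNA came from the livers of 3 control mice carrying floxed Notch1 (Notch1fl/fl) and of 3 mice labelled as hepatocyte Notch1 knockouts, all 6 without treatment. The sources used here do not name the Cre driver, strain, sex or age. The mice were made to study Notch1 in thrombopoietin supply by the liver, and the comparison here asks how these factors measured when Notch1 was deleted in hepatocytes.

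The ONECUT proteins bind DNA through a cut domain and a homeodomain and act in hepatoblasts, hepatocytes and bile ducts. The FOXA proteins are forkhead factors that can bind closed chromatin and open liver enhancers early in development. HNF4A is the nuclear receptor that drives a large share of hepatocyte genes, HHEX and PROX1 are homeodomain factors needed for the liver bud to grow and spread, and NR5A2 (LRH-1) is a nuclear receptor of bile acid and cholesterol genes. These factors bind one another's promoters and enhancers, so they are often described as a cross-regulated network. In rodent liver, Onecut1 is also known as a gene that growth hormone induces.

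The sequences just upstream of Foxa2, Foxa3 and Onecut1 are shown because Foxa2 and Onecut1 measured lower in every knockout while Foxa3, of the same family as Foxa2, did not. They are the 250 bases before the first listed start of each gene, from RefSeq's promoters on GRCm38.p6, 5′ to 3′ on the gene's strand. Capitals mark matches to ATTGAT, the core of the site that ONECUT1 binds, or to TGTTTAC or TGTTTGC, forms of the FOXA site, on either strand. Foxa2 has 1 such match in its window, and the others have none.
Foxa2, chr2:148046970-148047219, minus strand: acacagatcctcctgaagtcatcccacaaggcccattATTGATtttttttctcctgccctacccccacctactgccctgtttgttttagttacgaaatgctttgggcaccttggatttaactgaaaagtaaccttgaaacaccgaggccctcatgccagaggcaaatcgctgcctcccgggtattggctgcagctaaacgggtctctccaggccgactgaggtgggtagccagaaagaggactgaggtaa
Foxa3, chr7:19023540-19023789, minus strand: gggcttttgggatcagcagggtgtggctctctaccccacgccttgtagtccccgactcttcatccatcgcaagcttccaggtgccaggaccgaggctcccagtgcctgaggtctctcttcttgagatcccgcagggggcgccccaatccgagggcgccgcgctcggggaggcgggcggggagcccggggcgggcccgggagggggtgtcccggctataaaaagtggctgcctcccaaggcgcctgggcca
Onecut1, chr9:74861671-74861920, plus strand: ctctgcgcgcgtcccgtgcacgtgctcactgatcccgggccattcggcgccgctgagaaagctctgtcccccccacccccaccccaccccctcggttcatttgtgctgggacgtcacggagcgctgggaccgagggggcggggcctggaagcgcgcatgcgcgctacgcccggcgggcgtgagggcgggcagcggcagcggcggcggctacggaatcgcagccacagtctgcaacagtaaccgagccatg

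Promoters were listed for 8 of the 9 factors, with 13 starts in all. ATTGAT was found in 2 of the 13 windows. For Foxa2 it lay only before the first of 3 starts, at bases -213 to -208. For Hnf4a it lay only before the first of 2 starts, on the opposite strand at bases -59 to -54. That 6-letter core was present in 6.72% of all 32851 windows of this length. TGTTTAC was present before the start of Foxa1 (3.17% of all windows), and TGTTTGC before the second start of Prox1 (4.30%). The sites are given with 9 bases on each side, on the strand of the gene, to compare the letters around each core.
Foxa2, chr2:148047168-148047191: aggcccattATTGATtttttttct
Hnf4a, chr2:163506789-163506812: attagaagaATCAATaagataacc
Foxa1, chr12:57546237-57546261: tactgctttGTAAACAaagtgaggg
Prox1, chr1:190169620-190169644: tttgcttgcTGTTTGCatacctttc
The windows of Foxa1 and Hnf4a overlap annotated exons of the same genes, and that of the Prox1 site overlaps an exon of Gm28172. No window of the 13 held TCAAGGTCA (NR5A2), CAAAGTCCA (HNF4A), TTCNNNGAA (STAT factors, in 7.02% of all windows) or GTGGGAA (RBPJ, the DNA-binding partner of Notch, in 5.42%). A match describes the letters and not a bound site.

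Between 15612924 and 17511961 reads fell in genes per library. Values are levels in FPKM, reads per kilobase of gene length scaled by the authors per library. Differences are log2 fold changes of FPKM + 1, knockout over control, tested with limma over the 12022 genes averaging 0.5 FPKM or more, with p adjusted by the Benjamini-Hochberg method over all of them. Counts of genes with lower or higher means refer to means on this log2 scale. Notch1 measured 0.618, 0.965 and 0.854 FPKM in controls 1 to 3 and 0.301, 0.540 and 0.292 in knockouts 1 to 3, lower in each knockout (adjusted p = 0.257). Its value adds all exons and all cell types of the liver. In the same fit 3 genes (0.0250% of those tested) passed the threshold of 0.05, and none (0) did when the replicate number was added as a block. The sinusoidal, stellate and Kupffer cell markers overlapped between groups as summed levels. Summed hepatocyte, bile duct and mesothelial markers did not, though the hepatocyte sums overlapped without Alb. In bulk liver, fewer cells of a type and less RNA per cell cannot be told apart.

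None of the 9 factors passed over all genes (limma, 0 of 9). At an unadjusted p under 0.05 there were 6 of 9, against 13.9% of all genes tested, and limma voom on reads recovered from the values called 1 (Hhex, adjusted p = 0.0212). For 4 of the 9, Hhex, Foxa1, Onecut1 and Foxa2, all 3 knockouts lay below all 3 controls, where 10.6% of genes tested did so and 19.8% had separated groups in either direction. None lay wholly above the controls, where 9.20% of genes did. The factors were proposed with earlier results of these data known, so this count describes them and does not test them. The median log2 fold change of the 9 was -0.50, beside -0.01 for all genes tested. The plot of levels by liver shows 4 factors with separated groups and 5 with overlapping ones.

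**Figure D1:**
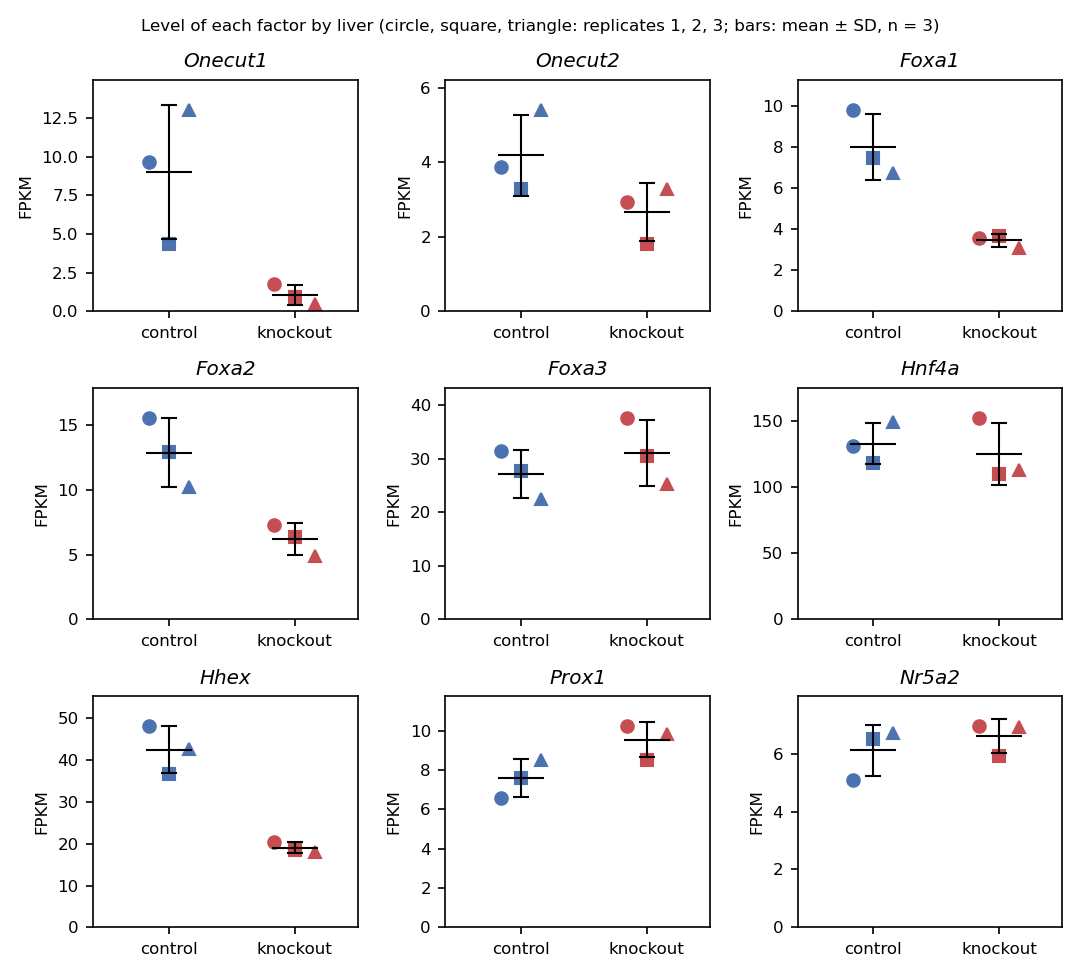
Level of each factor in FPKM (y axis, from 0) in the 3 control (blue) and 3 knockout (red) livers, with symbols for the replicate number and black bars for mean ± SD (n = 3). Onecut1, Foxa1, Foxa2 and Hhex separate the groups, and Hnf4a, Foxa3, Onecut2, Prox1 and Nr5a2 do not.

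Onecut1 (HNF6, chromosome 9, 74861921 to 74891781, GRCm38) had the widest gap of the 9. It measured 9.64, 4.36 and 13.0 FPKM in controls and 1.76, 0.934 and 0.498 in knockouts. The highest knockout lay below the lowest control, and control 2 was well below the other controls. The means were 9.0 ± 4.35 and 1.06 ± 0.639 (SD, n = 3), 8.47 times apart, with a log2 fold change of -2.21 (SE 0.37, 95% interval -3.10 to -1.33, limma adjusted p = 0.107). The gene was covered by 595, 287 and 888 reads in controls and by 108, 77 and 35 in knockouts, so each value rests on at least 35 reads. The pseudocount of 1 narrows this gap, and with 0.1 in its place the log2 fold change was -2.98.

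Its paralog Onecut2, which binds similar sites and is more prominent in fetal liver, differed less. It measured 3.87, 3.29 and 5.40 FPKM in controls and 2.94, 1.80 and 3.29 in knockouts, and the groups overlapped. The log2 fold change was -0.50 (SE 0.21, 95% interval -0.99 to -0.01, limma adjusted p = 0.353). Within each liver the order of the paralogs differed by group. Onecut1 exceeded Onecut2 by 2.49, 1.33 and 2.41 times in controls 1 to 3, and Onecut2 exceeded Onecut1 by 1.68, 1.93 and 6.62 times in knockouts 1 to 3. These ratios are of levels per length within a library and do not depend on scaling between libraries. Onecut3, the remaining family member, was listed at 0 in all 6 livers.

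The FOXA family split. Foxa1 (chromosome 12, 57540628 to 57546916) measured 9.82, 7.47 and 6.76 FPKM in controls and 3.60, 3.69 and 3.09 in knockouts. The knockouts lay close together, and all were below the lowest control. The means were 8.02 ± 1.60 and 3.46 ± 0.320, 2.32 times apart (log2 fold change -1.0, SE 0.14, 95% interval -1.34 to -0.67, limma adjusted p = 0.103).

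Foxa2 (chromosome 2, 148042877 to 148046969) has the ONECUT core shown above in the first of its 3 upstream windows only. It measured 15.5, 12.9 and 10.2 FPKM in controls and 7.31, 6.36 and 4.89 in knockouts. Again no knockout reached the lowest control. The means were 12.9 ± 2.66 and 6.18 ± 1.22, 2.08 times apart (log2 fold change -0.95, SE 0.18, 95% interval -1.38 to -0.52, limma adjusted p = 0.118). Between same-numbered livers, which the labels do not pair, the log2 differences of Foxa2 were -0.99, -0.92 and -0.93, closer to each other than the levels within either group.

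Foxa3 (chromosome 7, 19013284 to 19023538), the most abundant of the family in adult liver, measured 31.4, 27.7 and 22.5 FPKM in controls and 37.6, 30.5 and 25.3 in knockouts. The groups overlapped across most of their range (log2 fold change 0.18, SE 0.18, 95% interval -0.24 to 0.60, limma adjusted p = 0.699). Between same-numbered livers, again not paired by the labels, its log2 differences were 0.25, 0.13 and 0.17, higher in the knockout each time. Over the same pairs Hnf4a (0.21, -0.11 and -0.39) and Nr5a2 (0.38, -0.12 and 0.04) changed sign, and the remaining factors did not. With the replicate block the limma adjusted p of Foxa3 was 0.391. Foxa3 made up 55.3%, 57.6% and 57.0% of the summed FPKM of the family in controls 1 to 3 and 77.5%, 75.2% and 76.0% in knockouts 1 to 3. The ratio of Foxa2 to Foxa1 overlapped between groups (1.51 to 1.72 in controls, 1.58 to 2.03 in knockouts). The summed level of the family was 39.5 to 56.7 FPKM in controls and 33.3 to 48.5 in knockouts, also overlapping.

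**Figure D2:**
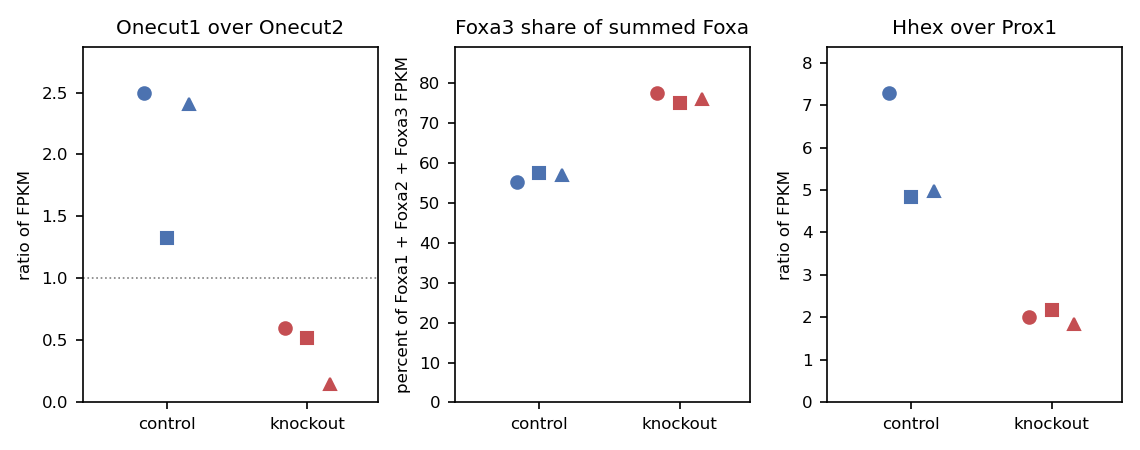
Ratios of levels within each liver, from 0: Onecut1 over Onecut2 (dotted line at equality), Foxa3 as a percent of the summed Foxa FPKM, and Hhex over Prox1, with symbols for the replicate number. Each measure separates the 3 controls (blue) from the 3 knockouts (red), with Onecut1 above Onecut2 in every control and below it in every knockout.

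Hhex (chromosome 19, 37434810 to 37440731), a homeodomain repressor of hepatoblasts and hepatocytes that endothelial cells also express, had the smallest p of the 9. It measured 48.0, 36.7 and 42.5 FPKM in controls and 20.5, 18.6 and 18.1 in knockouts. The 3 knockouts were nearly alike and lay far below the controls. The means were 42.4 ± 5.67 and 19.1 ± 1.27, 2.22 times apart (log2 fold change -1.11, SE 0.12, 95% interval -1.39 to -0.82). Its adjusted p was 0.0877 with limma and ranged from 0.0212 to 0.267 over 14 alternatives, and voom was the alternative that brought it past the threshold. Sinusoidal endothelium also expresses Hhex. Of its 11 markers tested, 8 had lower means, 3 had higher means and 0 passed (limma; 2 at an unadjusted p under 0.05, against 13.9% of all genes tested, 0 by voom), with a median log2 fold change of -0.16. For 3 of them, Cdh5, Oit3 and Stab2, all knockouts lay below all controls, as in 10.6% of all genes tested. Their summed level was 81.5 to 99.99 FPKM in controls and 77.1 to 98.7 in knockouts. The part of endothelial RNA in the Hhex difference was not tested.

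Hnf4a (chromosome 2, 163506808 to 163572910), the most abundant of the 9, measured 131, 118 and 149 FPKM in controls and 152, 110 and 113 in knockouts. Knockout 1 had the highest value of all livers and knockout 2 the lowest. The log2 fold change was -0.10 (SE 0.16, 95% interval -0.48 to 0.29, limma adjusted p = 0.840), and with scaling by total reads it was 0.04. Set against Hnf4a in the same liver, Hhex measured 36.6%, 31.1% and 28.6% of its FPKM in controls 1 to 3 and 13.5%, 16.9% and 16.05% in knockouts 1 to 3.

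Prox1 (chromosome 1, 190118035 to 190170714), which works with HNF4A in hepatocytes and also marks lymphatic endothelium, had the largest positive difference. It measured 6.60, 7.59 and 8.53 FPKM in controls and 10.2, 8.52 and 9.84 in knockouts, and knockout 2 fell just below control 3. The log2 fold change was 0.30 (SE 0.12, 95% interval 0.02 to 0.58, limma adjusted p = 0.334). Of 3 tested lymphatic markers, Pdpn measured 0.587, 1.07 and 5.83 FPKM in controls and 6.55, 13.7 and 10.4 in knockouts (limma adjusted p = 0.208). Pdpn is also made by mesothelium, and Flt4 and Lyve1 overlapped between groups. Summed over the 5 lymphatic markers, the level was 7.10 to 14.7 FPKM in controls and 12.6 to 23.6 in knockouts. The part of lymphatic RNA in the Prox1 values was not tested.

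Nr5a2 (chromosome 1, 136842571 to 136960448) measured 5.11, 6.51 and 6.71 FPKM in controls and 6.95, 5.93 and 6.93 in knockouts. Control 1 was the lowest, and the other livers lay within a narrow band. The log2 fold change was 0.10 (SE 0.12, 95% interval -0.19 to 0.39, limma adjusted p = 0.770), and without control 1 it was -0.0044. For Hnf4a, Foxa3 and Nr5a2 the intervals bound the difference but do not show equal levels.

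**Figure D3:**
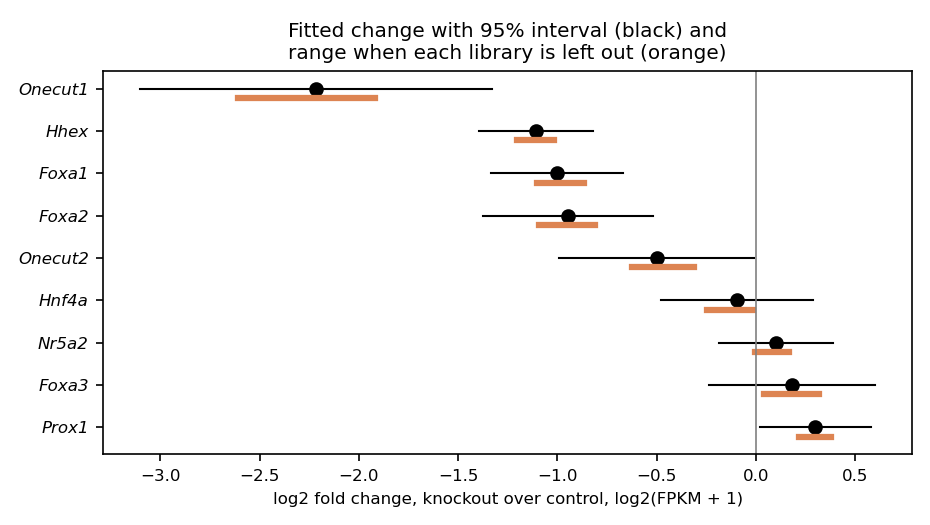
Log2 fold change of each factor (x axis, knockout over control on log2(FPKM + 1)) with its 95% interval in black and, in orange, the range when each of the 6 libraries is left out. Onecut1, Hhex, Foxa1 and Foxa2 stay well below 0 in each of these fits, Prox1 and Foxa3 stay above 0, and Nr5a2 touches 0.

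As levels per length, the order of the factors in controls was Hnf4a, Hhex, Foxa3, Foxa2, Onecut1, Foxa1, Prox1, Nr5a2 and Onecut2. Hnf4a, Hhex and Foxa3 stood apart from the next factor in every control, while the neighbours from Foxa2 down to Onecut2 overlapped in range. In knockouts the order was Hnf4a, Foxa3, Hhex, Prox1, Nr5a2, Foxa2, Foxa1, Onecut2 and Onecut1. There the ranges overlapped for 2 pairs of neighbours, Nr5a2 with Foxa2 and Foxa1 with Onecut2. Hhex thus lay above Foxa3 in each control and below it in each knockout. Hhex exceeded Prox1 by 4.83 to 7.27 times in controls and by 1.84 to 2.18 times in knockouts.

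The table assigns a transcription factor family to 684 of the tested genes. By mean level over the 6 livers, Hnf4a ranked 3 of 684, Hhex 20, Foxa3 25 and Foxa2 75, and Onecut2 was the lowest of the 9 at 219. By p, Hhex ranked 2 of 684, after Bcl6, a repressor that growth hormone holds down in liver and that rose (limma adjusted p = 0.0252). Foxa1 ranked 5, Onecut1 6 and Foxa2 11. Among these 684 genes, all 3 knockouts lay below all 3 controls in 10.8%, and 16.2% had separated groups in either direction.

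A list of 20 other liver transcription factors was read beside the 9. Of 19 tested, 13 had log2 fold changes below 0 and 0 passed (limma; 4 at an unadjusted p under 0.05, 0 by voom), with a median log2 fold change of -0.10. Among all genes tested, 13.9% had an unadjusted p under 0.05 and 19.8% had separated groups. Cebpa, a basic leucine zipper factor of mature hepatocytes, measured 184, 148 and 156 FPKM in controls and 121, 108 and 91.6 in knockouts, below every control (limma adjusted p = 0.166). Creb3l3, a membrane-bound factor of fasting metabolism, measured 97.0, 90.6 and 96.4 FPKM in controls and 78.1, 61.9 and 80.5 in knockouts (limma adjusted p = 0.279). Gata6 went the other way at a low level (0.954, 1.07 and 0.689 against 1.54, 2.36 and 1.66, limma adjusted p = 0.180). Zhx2, chosen after its values were seen, was the remaining gene with separated groups (3.48 ± 0.374 against 2.73 ± 0.194 FPKM).

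Among 9 cofactors of these factors, 6 had lower means and 0 passed (limma; 1 at an unadjusted p under 0.05, against 13.9% of all genes tested, 0 by voom), with a median of -0.04. Nrip1, a corepressor of nuclear receptors, measured 2.22, 1.58 and 2.13 FPKM in controls and 0.922, 0.940 and 1.41 in knockouts, without overlap (limma adjusted p = 0.202). Tle3, a Groucho-type corepressor, was low in all livers and lay higher in every knockout (0.418, 0.530 and 0.620 FPKM against 0.901, 0.728 and 0.658, limma adjusted p = 0.445). Ppargc1a, a fasting-induced coactivator of HNF4A, overlapped between groups.

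Textbook target genes of 4 of the factors were read next. All 15 HNF4A target genes had lower means, 0 passed (limma; 4 at an unadjusted p under 0.05, 0 by voom), and the median log2 fold change was -0.29. In 8 of the 15 the knockouts lay below all controls, as they did in 10.6% of all genes tested, where 13.9% had an unadjusted p under 0.05. Lower means were found in 6236 of the 12022 genes tested. The hepatocyte markers given below, which share Apoa1, Apob and Ttr with this list, had a similar median of -0.27. Cyp8b1, the sterol 12-alpha-hydroxylase needed to make cholic acid, measured 184, 166 and 176 FPKM in controls and 127, 81.7 and 77.7 in knockouts (limma adjusted p = 0.150). Otc, a urea cycle enzyme, measured 163, 159 and 134 FPKM in controls and 122, 89.0 and 99.5 in knockouts (limma adjusted p = 0.199). G6pc, the last step of glucose release, measured 173, 257 and 386 FPKM in controls and 61.9, 63.2 and 167 in knockouts, so that knockout 3 came near control 1 (limma adjusted p = 0.219). Hnf4a itself overlapped between groups, as given above.

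Of 8 FOXA target genes, 6 had lower means and 0 passed (limma; 1 at an unadjusted p under 0.05, 0 by voom), with a median of -0.26. G6pc belongs here too, and Tat, a tyrosine-degrading enzyme, went the other way with overlap (229, 440 and 604 FPKM against 540, 635 and 596). Cps1, the first enzyme of the urea cycle, overlapped (614 ± 56.0 against 510 ± 130). Of 8 ONECUT1 target genes, 7 had lower means and 0 passed (limma; 3 at an unadjusted p under 0.05, 0 by voom), with a median of -0.18. Besides Foxa2 and G6pc, Slc2a2, the glucose transporter GLUT2, measured 33.7, 37.3 and 26.3 FPKM in controls and 16.4, 20.8 and 18.4 in knockouts, without overlap (limma adjusted p = 0.129). Of 8 NR5A2 target genes, 6 had lower means and 0 passed (limma; 1 at an unadjusted p under 0.05, 0 by voom), with a median of -0.13. There Cyp8b1 had separated groups, while Abcg5, a sterol exporter, overlapped. Among all genes tested, 13.9% had an unadjusted p under 0.05. Some targets stand on several lists, so the lists are not separate evidence. Foxa2 and Hnf4a, on the ONECUT1 list, are themselves among the factors read here, so that list reuses their values.

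**Figure D4:**
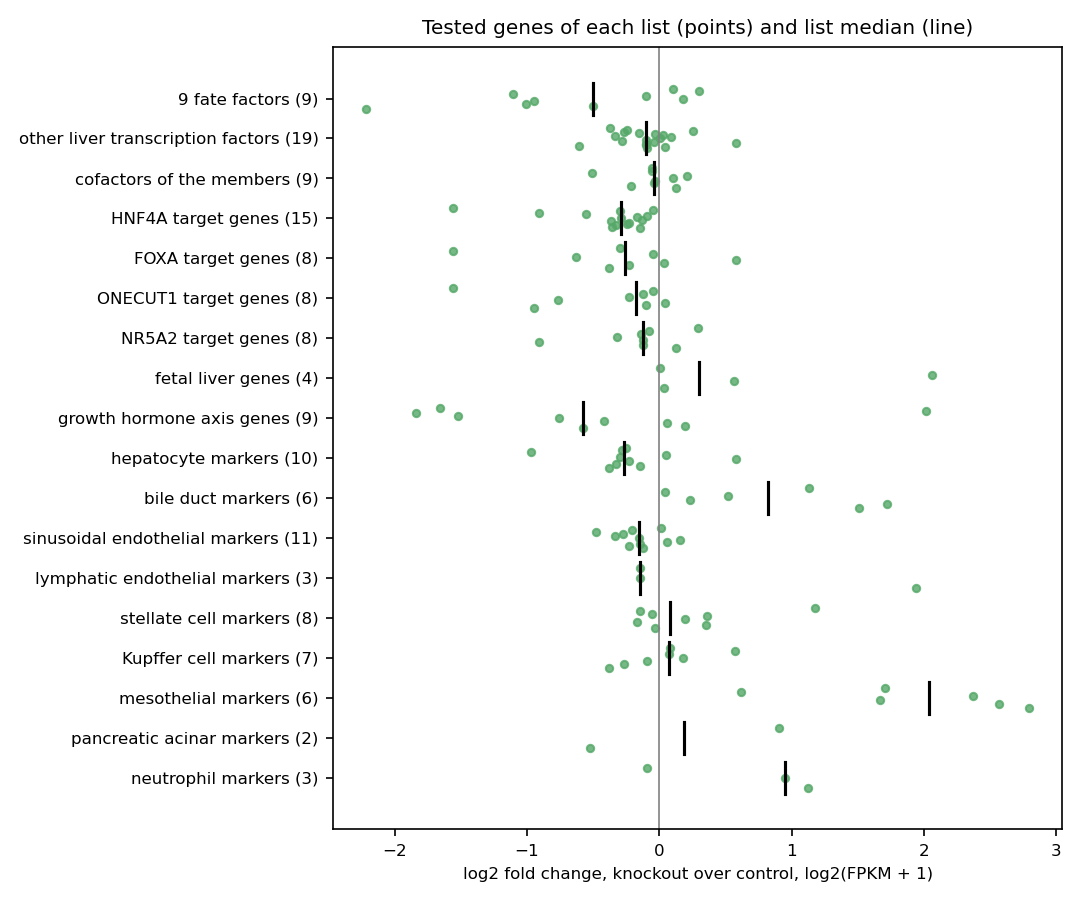
Log2 fold change (x axis, knockout over control) of the tested genes of each list (green points, number tested in parentheses) with the list median as a black line. The 9 factors have a median of -0.50, the 4 target lists lie between -0.29 and -0.13, and mesothelial and bile duct markers lie to the right at 2.04 and 0.82.

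Markers of hepatocytes and of neighbouring cell types were read in the same livers. The 10 hepatocyte markers were all tested, as a check of the labelled tissue, and 8 had lower means (median -0.27; limma 0 passed, 2 at an unadjusted p under 0.05, against 13.9% of all genes tested, 0 by voom). Their summed level was 47217 to 55231 FPKM in controls and 33604 to 44790 in knockouts, without overlap. Alb makes up most of that sum, and without it, an alternative chosen after seeing the data, the sums overlapped (16474 to 17716 against 13152 to 16511). Cyp2e1, a pericentral cytochrome, measured 1797, 1899 and 1688 FPKM in controls and 1276, 623 and 967 in knockouts. Asgr1 and Fah were lower in each knockout by less (log2 fold changes of -0.25 and -0.28). Onecut1, Hhex, Foxa1 and Foxa2 had log2 fold changes of -2.21, -1.11, -1.0 and -0.95. Those of the 10 hepatocyte markers ran from -0.97 for Cyp2e1 to 0.58 for Tat, with the median of -0.27. The part of the lower hepatocyte values in the 4 lower factors was not tested.

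Of 12 bile duct markers, 6 were tested, and all 6 had higher means (median 0.82; limma 0 passed, 4 at an unadjusted p under 0.05, against 13.9% of all genes tested, 0 by voom). Their summed level was 17.1 to 19.9 FPKM in controls and 28.8 to 39.2 in knockouts. Krt7, a duct keratin, measured 0.217, 0.337 and 1.26 FPKM in controls and 2.49, 4.94 and 3.13 in knockouts (limma adjusted p = 0.115). Bicc1 measured 0.224, 0.663 and 1.01 against 1.87, 3.38 and 2.42. Sox9, a factor of ducts and progenitors, measured 0.919, 0.574 and 0.713 against 1.26, 1.34 and 1.87. The defining marker Epcam, chosen after its values were seen, was near 0 (0.141 ± 0.0944 against 0.187 ± 0.134).

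Krt7 is also made by mesothelium, and 5 of the 6 mesothelial markers lay higher in every knockout (median 2.04; limma 0 passed, 6 at an unadjusted p under 0.05, 0 by voom). Among all genes tested, 9.20% lay higher in every knockout and 13.9% had an unadjusted p under 0.05. Msln measured 2.02, 3.90 and 19.1 FPKM in controls and 36.6, 60.7 and 41.8 in knockouts. The summed mesothelial level was 4.95, 12.4 and 50.6 in controls 1 to 3 and 84.5, 144 and 114 in knockouts 1 to 3. The part of mesothelial RNA in the values of the 9 factors was not tested.

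Of 8 fetal liver genes, 4 were tested, all with log2 fold changes above 0, though that of Cd24a was only 0.0036. The median was 0.30, and 0 passed (limma; 1 at an unadjusted p under 0.05, against 13.9% of all genes tested, 0 by voom). Afp, a target of FOXA factors in fetal liver, measured 0.732, 0.649 and 0.518 FPKM in controls and 0.536, 1.16 and 0.417 in knockouts, with overlap. H19 measured 2.92 FPKM in knockout 2 and at most 0.305 elsewhere. Gpc3, which mesothelium also expresses, measured 0.669, 2.32 and 10.3 FPKM in controls and 12.5, 23.7 and 12.8 in knockouts (limma adjusted p = 0.253).

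Because growth hormone is known to induce Onecut1, genes of that axis were set beside it. Of 9 tested, 1 rose (Bcl6) and 1 fell (Cish, a feedback inhibitor; both limma adjusted p = 0.0252, and 0.0549 with the replicate block), with a median of -0.58. Without control 2, knockout 1 or knockout 3 neither passed (adjusted p = 0.0904, 0.0665 and 0.171), and without control 1 Cish did not (0.0830). Without a filter on low values neither passed (0.124), and with a pseudocount of 0.1 Bcl6 did not (0.0874). In 5 of the 9 the knockouts lay below all controls, as they did in 10.6% of all genes tested. Igfals, which carries IGF1 in blood, measured 50.8, 38.3 and 44.5 FPKM in controls and 33.4, 20.7 and 24.7 in knockouts. This list was chosen with those results known.

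For the 3 factors with the smallest p, the genes most like them were taken as those with the smallest root mean square difference of centred log2(FPKM + 1) over the 6 livers, among 10634 other protein-coding genes. For Onecut1 these were Alas1 (0.326), the first enzyme of heme synthesis, Socs2 (0.420) and Cish (0.448), both feedback inhibitors of growth hormone signalling. Alas1 and Socs2 were, like Onecut1, lowest among controls in control 2, and Cish measured nearly the same in controls 1 and 2 (3.46 and 3.38 FPKM). Alas1 measured 40.5, 28.7 and 60.9 FPKM in controls and 9.94, 7.57 and 10.2 in knockouts. Socs2 measured 9.42, 2.89 and 9.45 FPKM in controls and 2.27, 1.14 and 1.56 in knockouts. For Hhex the nearest were Acsl1 (0.0979), a fatty acid activating enzyme, Foxa1 (0.130) and E2f8 (0.131), a cell cycle repressor. For Foxa1 they were Foxa2 (0.113), Hhex (0.130) and Enpp2 (0.176), which encodes autotaxin. The measure describes 6 livers in 2 groups and carries no test.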

How the data were processed

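RNA was isolated with Trizol and poly-T beads were used to select messenger RNA for NEBNext Ultra libraries, per the labels' protocols. HISAT2 2.0.5, featureCounts 1.5.0-p3 and GRCm38 are named in the submitters' processing notes, without their roles. The deposited table gives FPKM for 54532 genes; how the authors computed it is not stated. The product of FPKM and gene length moves in steps, each library with its own; divided by that step, 100% of values above 0 came out whole (tolerance 0.1 read), which gave the reads quoted. Scaling differed from the read total between libraries, so scaling by total reads was tried too. The columns NC1 to NC3 were assigned to the controls by elimination, and their numbers were read as replicates; every control value rests on this. Livers came from separate mice, with no litter or day in the labels.

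The genes averaging 0.5 FPKM or more were fitted with limma 3.58.1 (eBayes with trend) in R 4.3.3 on log2(FPKM + 1), two-sided, without a block, after tests on simulated data. A pseudocount understates the change of low genes. The members, lists and tests were chosen with earlier results of these data known. Named genes were the 9 factors, Notch1, the 3 smallest p of each list, any list gene that passed, and the 3 genes most like Hhex, Onecut1 and Foxa1. Deviations from group means correlated at 0.31, 0.16 and 0.10 for livers with the same number and at -0.25 to 0.11 otherwise; this rests on the values alone, and the block is an alternative. Neighbouring and antisense genes cannot be told apart where reads were counted without strand, which is not given in the sources used here. By identifier, 54495 genes were found in GENCODE M21, and 8 of the 9 factors had the same coordinates there. Neutrophil and pancreatic acinar markers were also read, and none of those tested passed. A few list genes that the rule names are not reported here.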

Additional observations from a re-analysis of the deposited data

How the results depend on the processing

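The fit was repeated under 14 alternatives. Of 126 values of the 9 factors, 123 kept their direction and their side of the threshold. Hhex passed with voom on recovered reads, so that 1 of the 9 factors passed there against 0 in the other alternatives. The reversed values were Hnf4a with scaling by total reads (0.045) and Nr5a2 without control 1. Scaling by total reads moved the median of all genes by 0.11 on the log2 scale; relative to that shift Hnf4a remained lower. The count of genes passing over all genes, 3 as reported, was 1 with a pseudocount of 0.1, 0 without a filter on low values, 15 with voom and 0 with the replicate block, which changed no call among the 9 factors. Leaving out 1 library gave 0 to 58: 1 without control 1, 0 without control 2, 58 without control 3, 0 without knockout 1, 29 without knockout 2 and 2 without knockout 3. The cause was not tested. Over the same fits, the log2 fold change ran from -0.0044 to 0.17 for Nr5a2, from -0.14 to 0.16 for Afp, from -0.42 to 0.042 for Lyve1, from -0.0031 to 0.86 for H19 and from -0.39 to 1.55 for Ctrb1, and Afp was -0.0023 with quantile normalization. At these depths 3 reads in a gene of 1 kilobase equal 0.150 to 0.201 FPKM; among the 9 factors the fewest reads were the 35 of Onecut1 in knockout 3.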

Other observations

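Of 6 pancreatic acinar markers 2 were tested, and of 6 neutrophil markers 3 were tested, and none of these passed (limma). Some markers of these lists were high in a single liver. Ctrb1, a pancreatic acinar protease, measured 13.8 FPKM in knockout 2, 0.987 in control 1, 0.137 in control 3 and 0 in the other livers. Cpa1, Prss2 and Cel, listed with it but too low to be tested, measured 2.02, 2.82 and 1.14 FPKM in knockout 2. Each was at 0 in knockouts 1 and 3 and at most 0.0818 FPKM in any control. Cela1, an elastase of the same list, measured 15.1, 14.8 and 10.3 FPKM in controls and 11.1, 9.50 and 6.54 in knockouts. Ptf1a was listed at 0 throughout. Among neutrophil markers, S100a8 measured 2.50, 1.53 and 4.60 FPKM in controls and 7.80, 4.31 and 10.03 in knockouts, and S100a9 was highest in knockout 3 at 24.3. Without knockout 2 the log2 fold changes of Onecut1, Hhex, Foxa1 and Foxa2 were -2.19, -1.09, -1.04 and -0.97.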
